A study of Homo sapiens with 2 samples.

Results

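The nuclear pore and its transport receptors were examined in a list of chromatin sites precipitated with the transcription factor RFX6 from HCC cells. The genes were taken by name from the RefSeq gene table (GRCh38.p14), as protein-coding genes whose symbol begins with NUP or IPO followed by a digit, or with KPNA, KPNB, XPO or TNPO. This gave 47 of the 20037 protein-coding genes, namely 23 nucleoporin genes and 24 transport receptor genes. The list came from MHCC-97H, an HCC cell line that overexpressed RFX6 with an HA tag from a plasmid, and an anti-HA antibody was used because the RFX6 antibody of the study was not suited to chromatin immunoprecipitation (ChIP). The series holds 1 HA-RFX6 ChIP library and 1 input library of the same line, only the ChIP library gave a list here, and the labels do not say whether the input cells carried HA-RFX6. There was no replicate, so no test between groups was possible, and the read depth was unknown. A peak list carries no expression, so the cell line could not be checked against hepatocyte markers. The processing notes name GRCh37, but the intervals matched GRCh38. Of 4866 intervals on chromosomes with annotated starts, 51.4% had their midpoint within 1 kb of a protein-coding start of GRCh38.p14, compared with 3.02% and 3.0% after moving them by 20 kb to either side.

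The nuclear pore is a ring-shaped channel through the nuclear envelope. Scaffold nucleoporins build the outer and inner rings, a membrane protein anchors them, nucleoporins with phenylalanine-glycine repeats fill the channel, and further nucleoporins form filaments towards the cytoplasm and a basket towards the nucleus. Importins carry proteins inwards and exportins carry proteins or RNA outwards, with the small GTPase RAN setting the direction, whereas importin alpha proteins are adaptors that link the classical import signal to importin beta. RFX family proteins bind the X-box, an inverted repeat of which GTTGCC is a half-site.

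Of the 47 genes, 16 had an interval whose midpoint lay within 1 kb of either gene end (34.0%, 95% Wilson interval 22.2% to 48.3%), compared with 3100 of all protein-coding genes (15.5%). Such intervals numbered 24. No further gene was added by intervals inside the gene body, so that 16 of the 47 genes had an interval at an end or in the body, compared with 19.5% of all protein-coding genes. The 16 genes were IPO13, XPOT, NUP155, KPNA1, NUP43, NUP98, NUP210, KPNA4, XPO5, NUP37, NUP153, NUP107, NUP160, NUP85, KPNB1 and NUP188, in descending order of their highest score. The score is a whole number deposited with each interval, and its meaning is not stated. It is used here only to order and select intervals within the list, by ranks, cut-offs, medians and quartiles. Wilson intervals cover the counting of genes only, and genes are not replicates. A precipitation from cells without HA-RFX6 was not analysed here, so binding of RFX6 and precipitation of these promoters by other means cannot be told apart.

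The annotated start was known for 41 genes. KPNA4, KPNA5, KPNA7, KPNB1, NUP43 and XPO7 had no entry in the promoter table. Among the 41, the start of 13 lay within 1 kb of an interval midpoint (31.7%, 19.6% to 47.0%), compared with 15.4% of the protein-coding genes with a known start. Only NUP107 had an interval within 1 kb of its far end (2.44%, 0.432% to 12.6%), compared with 1.15% of all. The intervals at these genes were thus almost all at starts. The 13 genes carried 19 intervals at the start, of which 9 had their midpoint upstream and 10 downstream. Their midpoints ran from 391 bp upstream to 607 bp downstream, and 18 of the 19 lay within 400 bp, compared with 77.4% of the intervals at all protein-coding starts. The limit of 400 bp was not planned and lies just beyond the 391 bp of these genes, so this comparison is a description only. The start itself was covered by 8 of the 19 (42.1%), against 38.1% in all.

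To show where the intervals fell in the sequence, the RefSeq promoter window of 300 bases (250 before and 50 after the start, GRCh38.p14, read 5′ to 3′ on the strand of the gene) is printed for the 6 genes with the highest scores at the start. Capitals mark the bases covered by an interval. The windows are chr1:43946700-43946999 (plus strand) for IPO13, chr12:64404142-64404441 (plus strand) for XPOT, chr5:37371057-37371356 (minus strand) for NUP155, chr3:122514890-122515189 (minus strand) for KPNA1, chr11:3797505-3797804 (minus strand) for NUP98 and chr3:13420273-13420572 (minus strand) for NUP210.
IPO13: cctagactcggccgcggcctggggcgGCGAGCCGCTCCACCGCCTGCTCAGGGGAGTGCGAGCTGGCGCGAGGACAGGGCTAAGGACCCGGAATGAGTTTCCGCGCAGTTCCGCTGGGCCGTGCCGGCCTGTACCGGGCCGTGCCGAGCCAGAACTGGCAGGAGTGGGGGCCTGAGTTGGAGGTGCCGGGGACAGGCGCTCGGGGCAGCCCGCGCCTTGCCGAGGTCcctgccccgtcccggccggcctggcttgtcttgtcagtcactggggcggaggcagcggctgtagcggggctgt
XPOT: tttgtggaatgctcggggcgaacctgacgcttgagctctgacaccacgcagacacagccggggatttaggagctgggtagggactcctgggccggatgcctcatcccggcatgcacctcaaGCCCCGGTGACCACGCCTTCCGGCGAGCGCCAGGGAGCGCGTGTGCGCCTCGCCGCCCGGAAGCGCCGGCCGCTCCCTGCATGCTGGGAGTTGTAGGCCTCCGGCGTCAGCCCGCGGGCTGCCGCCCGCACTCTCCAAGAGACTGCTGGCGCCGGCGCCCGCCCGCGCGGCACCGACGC
NUP155: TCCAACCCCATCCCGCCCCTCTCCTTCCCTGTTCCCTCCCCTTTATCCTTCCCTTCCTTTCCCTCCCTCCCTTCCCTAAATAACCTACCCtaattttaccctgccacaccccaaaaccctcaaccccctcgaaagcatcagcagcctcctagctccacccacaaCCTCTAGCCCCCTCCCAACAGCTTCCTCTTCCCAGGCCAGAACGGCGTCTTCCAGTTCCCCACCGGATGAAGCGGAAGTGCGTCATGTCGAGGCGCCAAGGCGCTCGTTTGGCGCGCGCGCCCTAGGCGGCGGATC
KPNA1: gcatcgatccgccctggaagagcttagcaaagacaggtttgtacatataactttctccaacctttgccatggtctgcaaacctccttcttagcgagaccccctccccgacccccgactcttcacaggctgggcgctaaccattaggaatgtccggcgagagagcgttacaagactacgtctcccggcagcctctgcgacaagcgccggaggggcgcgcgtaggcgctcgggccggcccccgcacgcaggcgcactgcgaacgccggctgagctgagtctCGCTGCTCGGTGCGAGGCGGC
NUP98: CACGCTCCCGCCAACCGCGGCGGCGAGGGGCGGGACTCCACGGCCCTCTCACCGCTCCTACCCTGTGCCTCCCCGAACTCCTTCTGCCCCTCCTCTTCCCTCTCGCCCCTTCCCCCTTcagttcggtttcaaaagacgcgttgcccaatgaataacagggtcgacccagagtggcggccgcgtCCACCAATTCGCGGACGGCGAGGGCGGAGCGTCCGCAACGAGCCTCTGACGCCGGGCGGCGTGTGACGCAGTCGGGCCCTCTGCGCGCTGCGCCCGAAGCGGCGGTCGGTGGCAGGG
NUP210: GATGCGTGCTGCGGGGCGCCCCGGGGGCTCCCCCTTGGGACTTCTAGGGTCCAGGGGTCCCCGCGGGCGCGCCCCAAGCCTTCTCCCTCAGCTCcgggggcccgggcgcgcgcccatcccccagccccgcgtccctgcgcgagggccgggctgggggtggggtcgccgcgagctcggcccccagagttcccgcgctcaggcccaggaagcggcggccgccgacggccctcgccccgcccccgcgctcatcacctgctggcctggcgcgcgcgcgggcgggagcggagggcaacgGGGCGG

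Intervals covered 201 of the 300 bases at IPO13, 179 at XPOT, 226 at NUP155 and 235 at NUP98. At KPNA1 only 21 bases at the 3′ side of the window were covered, as its interval lay downstream of the start. At NUP210, 100 bases were covered at the 2 edges of the window, and the bases around the start lay between intervals. The NUP98 window held 1 GTTGCC, which began 111 bases before the start in the uncovered stretch between its 2 intervals and shared 1 base with a CCAAT. The NUP210 window held GTTGCC on the other strand, 37 bases after the start, also uncovered. The windows of IPO13, XPOT, NUP155 and KPNA1 did not hold these letters.

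**Figure D1:**
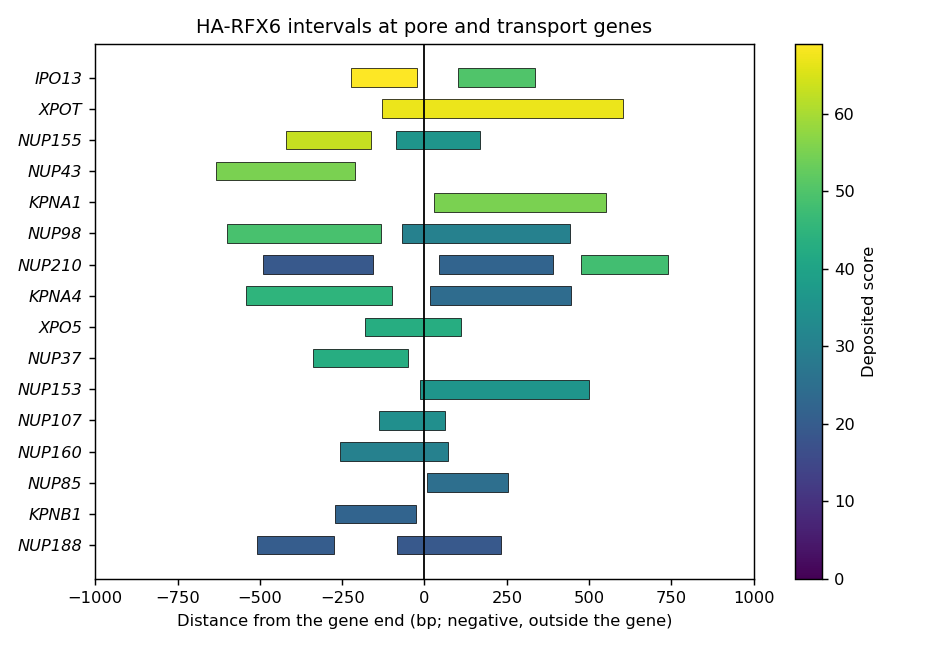
Intervals at the 16 genes, drawn from start to end as distance from the gene end they lie at (x axis, bp, negative outside the gene) and coloured by the deposited score, with genes in descending order of their highest score. The interval at the far end of NUP107 and the interval inside the body of NUP210 are left out. The highest scores, 69 at IPO13 and 67 at XPOT, are at the top, and NUP188 is at the bottom with 20.

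Among the scaffold genes of the outer ring, also called the Y complex, 5 of 6 had an interval at an end (83.3%, 43.6% to 97.0%), beside 15.5% of all protein-coding genes. They were NUP37, NUP43, NUP85, NUP107 and NUP160, and NUP133 was without. When each interval was given only to the coding gene with the nearest end, NUP37 and NUP43 lost theirs and 3 of 6 genes were left, beside 13.4% of all protein-coding genes. The highest score was at NUP43, where a single interval of 423 bp (chromosome 6 from 149749570 to 149749992) scored 55 and ranked 466 of 5019. Its midpoint lay 423 bp outside the high-coordinate end of NUP43, and the nearest coding gene end was that of PCMT1, a protein repair methyltransferase. The NUP37 interval (chromosome 12 from 102120163 to 102120452, score 43, rank 988) lay 193 bp upstream of the start. Its nearest coding end belonged to the neighbour PARPBP, and the interval cannot be assigned to NUP37 alone. At NUP107, an interval of 202 bp (chromosome 12 from 68686840 to 68687041) covered the start with a score of 34. A second one (from 68746144 to 68746355, score 25) lay 440 bp outside the far end, nearer to the end of SLC35E3. The NUP160 interval (chromosome 11 from 47848472 to 47848800) covered the start, and its 2 lines had scores of 30 and 21. At NUP85, the interval (chromosome 17 from 75205686 to 75205933) lay 130 bp downstream of the start with a score of 25, below the median of 30 of all intervals. The scores of the outer ring genes therefore spanned the lower and upper parts of the list.

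NUP98 encodes a precursor that is cleaved into NUP98, a nucleoporin of the channel, and NUP96, a part of the outer ring. It had 2 intervals on chromosome 11. The interval from 3797687 to 3798154 (score 49, rank 675) lay 366 bp upstream of the start and nearest to an end of PGAP2. The interval from 3797113 to 3797621 (score 30) covered the start. Both had ends of NUP98 and PGAP2 within 1 kb.

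In the inner ring, which joins the outer rings to the membrane, 2 of 5 genes had an interval (40.0%, 11.8% to 76.9%), beside 15.5% of all protein-coding genes. With scores of at least 30 only NUP155 was left (1 of 5, beside 9.5% of all). NUP155 had an interval upstream of the start (chromosome 5 from 37371267 to 37371526) with a score of 63 and rank 232, and another across the start (from 37370936 to 37371192) with a score of 36. NUP188 was at the other extreme. Its intervals on chromosome 9, from 128947191 to 128947425 and from 128947616 to 128947930, had scores of 20 and 19 and ranked 4179 and 4246 of 5019. The latter was listed on 6 lines, more often than any other interval at these genes, and an end of DOLK, the dolichol kinase gene, was within 1 kb of both. NUP35, NUP93 and NUP205 had no interval.

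Of the remaining nucleoporin genes, NUP210 and NUP153 had an interval at an end. NUP210, the membrane glycoprotein of the pore, had 3 intervals around its start on chromosome 3, and the one with the highest score of 48 (from 13419584 to 13419847) lay 607 bp downstream. The others, from 13419932 to 13420278 and from 13420479 to 13420811, had scores of 22 and 19. NUP210 was also the only gene of the 47 with an interval in its body, 5668 bp downstream of the start (from 13414452 to 13414856, score 27). That was 2.13% of the 47 genes (0.377% to 11.1%), beside 5.59% of all protein-coding genes. Of the basket genes, NUP153 had an interval of 514 bp across its start (chromosome 6 from 17706425 to 17706938). It was listed on 4 lines with scores from 27 to 36, and an end of the antisense gene NUP153-AS1 was within 1 kb. NUP50 had none. The channel genes NUP54, NUP58 and NUP62 (0 of 3, upper limit 56.1%), the genes of the cytoplasmic side NUP42, NUP88 and NUP214 (0 of 3, upper limit 56.1%) and the relatives NUP62CL and NUP210L (0 of 2, upper limit 65.8%) had no interval. These upper limits all lay above the 15.5% of all protein-coding genes. In all, 10 of 23 nucleoporin genes had an interval at an end (43.5%, 25.6% to 63.2%), beside 15.5% of all protein-coding genes.

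Among the transport receptors, 6 of 24 genes had an interval at an end (25.0%, 12.0% to 44.9%). The 15.5% of all protein-coding genes lay within this Wilson interval. The Wilson intervals of nucleoporins and receptors overlapped. The highest scores of the group were at the receptor genes IPO13 (69) and XPOT (67), followed by the nucleoporin gene NUP155 (63). IPO13, an importin that also exports some cargo, had an interval of 201 bp just upstream of the start (chromosome 1 from 43946726 to 43946926) with a score of 69 and rank 143, and another of score 50 downstream (from 43947051 to 43947286). An end of the non-coding gene LOC101929609 was within 1 kb of both. KPNB1, importin beta itself, had an interval of lower score, 22 (chromosome 17 from 47649648 to 47649893), 149 bp outside its low-coordinate end and beside the divergent transcript KPNB1-DT. These were the 2 of 11 genes of the importin beta family with an interval (18.2%, 5.14% to 47.7%), close to the 15.5% of all protein-coding genes. With scores of at least 30 only IPO13 was left (1 of 11, 9.09%, beside 9.5% of all). IPO4, IPO5, IPO7, IPO8, IPO9, IPO11, TNPO1, TNPO2 and TNPO3 had none.

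Of the importin alpha genes, KPNA1 and KPNA4 had an interval (2 of 7, 28.6%, 8.22% to 64.1%), beside 15.5% of all protein-coding genes. The KPNA1 interval (chromosome 3 from 122514387 to 122514910) lay within the first part of the gene and had scores of 55 and 27 on its 2 lines. KPNA4 had an interval on either side of its high-coordinate end, from 160565671 to 160566114 with scores of 45 and 13, and from 160565125 to 160565554 with a score of 24. KPNA2, KPNA3, KPNA5, KPNA6 and KPNA7 had none. The intervals nearest to KPNA7 and KPNA6 were 1783 bp and 3334 bp from their ends, with scores of 22 and 38, and lay inside the neighbours SMURF1 and TXLNA within 1 kb of an end. For the other genes without an interval, the nearest one was farther than 5 kb, and the median distance over all 31 was 159 kb.

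Of the exportin genes, 2 of 6 had an interval (33.3%, 9.68% to 70.0%), beside 15.5% of all protein-coding genes. XPOT, the exporter of tRNA, had the widest interval of the group, 734 bp across the start (chromosome 12 from 64404263 to 64404996). It was listed on 3 lines with scores from 30 to 67 and ranked 165. XPO5, the exporter of microRNA precursors, had an interval of 292 bp across its start (chromosome 6 from 43575927 to 43576218), which scored 43. The same interval lay within 1 kb of an end of POLH, a DNA polymerase gene on the opposite strand. XPO1, the main exporter of proteins, and XPO4, XPO6 and XPO7 had none.

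**Figure D2:**
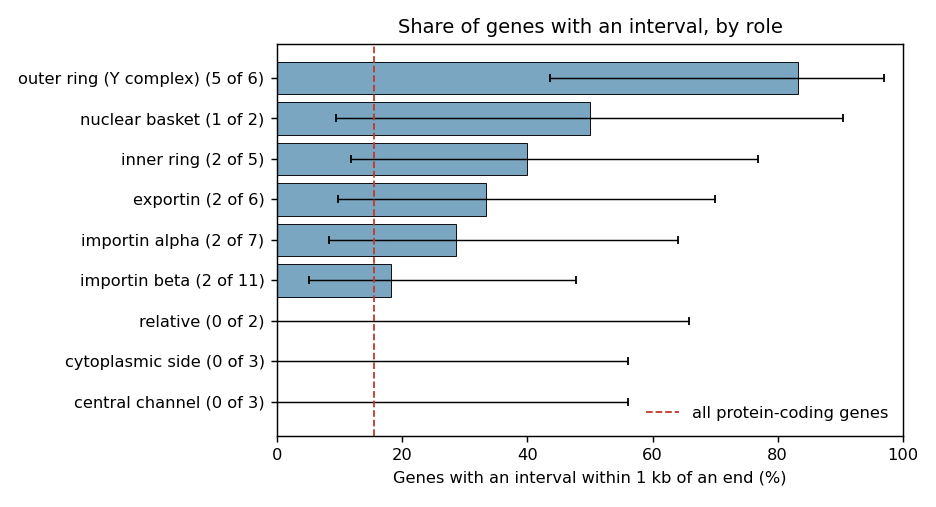
Share of genes with an interval within 1 kb of an end (x axis, %) for each role with more than 1 gene (y axis, with counts). Bars are shares, whiskers are 95% Wilson intervals, and the dashed line marks the 15.5% of all protein-coding genes. The outer ring lies at 83.3%, and the channel and cytoplasmic side lie at 0, with wide whiskers in all roles.

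Next, the intervals were compared with those at other genes. The 24 intervals at the ends of these genes scored 36 in the median (quartiles 24.75 and 49.25, range from 19 to 69). The 3054 intervals at the ends of all protein-coding genes scored 32 in the median (quartiles 25 and 43, range from 13 to 126). The scores at these genes lay within that range, and the highest, at IPO13, ranked 143 of 5019. A score of at least 30 was reached by 16 of the 24 (66.7%), against 57.1% in all. These scores are the highest of repeated lines. With the lowest, the median of the 24 was 27. The value for all protein-coding gene ends under that setting is not given here, so the order of the medians may depend on this choice. Several of the genes carried more than 1 interval. Of the 16 genes, 7 had at least 2 intervals at their ends (43.8%), compared with 467 of 3100 protein-coding genes with an interval (15.1%). The 7 genes were IPO13, NUP210, KPNA4, NUP155, NUP188, NUP98 and NUP107. At NUP98, NUP188 and NUP107, 1 of the 2 intervals was nearest to the end of a neighbour (PGAP2, DOLK and SLC35E3). Except at NUP107, neighbouring intervals of a gene were less than 1 kb apart, so merging at that distance would join them. The count of 7 was not repeated under the alternative settings. Among 28 other genes of the pore and of transport, whose symbols did not meet the rule, it was 1 of the 9 with an interval (11.1%). More than 1 line was given to 11 of the 24 intervals (45.8%), against 22.3% of the intervals at all protein-coding gene ends, and their median width was 303.5 bp, compared with 282 bp. Peaks of 1 library share their depth, so these values are a description and no test was made.

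**Figure D3:**
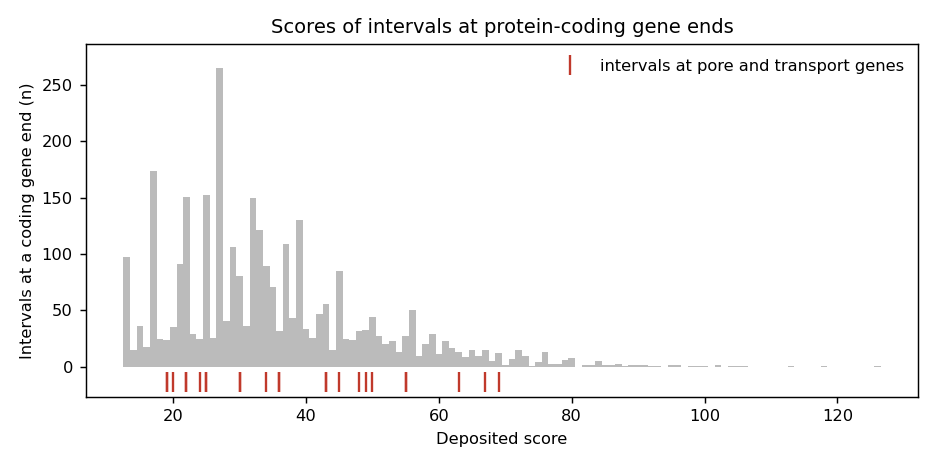
Number of intervals at protein-coding gene ends (y axis) at each deposited score (x axis), from 13 to 126. The red ticks below mark the 24 intervals at pore and transport genes, which run from 19 to 69, with equal scores drawn on top of each other.

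Neighbouring genes on the opposite strand were then considered, because an interval between 2 starts cannot be assigned to either gene. Among the 41 genes with a known start, 7 had another coding start on the opposite strand within 1 kb, and 4 of these had an interval at the start (57.1%, 25.0% to 84.2%). They were XPO5 with POLH, NUP188 with DOLK, NUP98 with PGAP2 and NUP37 with PARPBP. NUP88 with RPAIN, NUP62 with ATF5 and NUP62CL with DNAAF6 had none. Of the 34 genes without such a neighbour, 9 had an interval at the start (26.5%, 14.6% to 43.1%). Over all protein-coding genes the shares were 24.4% and 14.1%. When each interval was given only to the coding gene with the nearest end, NUP37 and NUP43 lost theirs, and 14 of the 47 genes remained, beside 13.4% of all protein-coding genes.

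The position on chromosomes was also examined. The 6 genes on chromosomes 4, 13 and X, namely NUP54, XPO4, NUP58, KPNA3, IPO5 and NUP62CL, had no interval (0 of 6, upper limit 39.0%), and there the share of all protein-coding genes was 4.19%. On the other chromosomes 16 of 41 genes had one (39.0%, 25.7% to 54.3%), compared with 16.7% of all. Chromosomes 4, 13 and X were chosen after the data were seen. As no gene of the group had an interval there, setting them apart could only raise the share, which is a description only. Gene length was similar with and without an interval, with medians of 59.1 kb for the 16 genes and 68.1 kb for the other 31, although the median of all protein-coding genes was 24.1 kb.

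The promoter windows were then compared for composition. The 13 windows of genes with an interval at the start had a median of 67.0% G and C (range 57.0% to 81.3%) and of 30 CG dinucleotides. The 28 windows of genes without one had medians of 61.8% (44.0% to 77.7%) and 24.5, and the ranges overlapped widely. Over all protein-coding genes, windows with and without an interval had medians of 68.7% and 61.3%. NUP210 had the highest content with 81.3%, and NUP210L, without an interval, had the lowest with 44.0%. XPO4 (77.7%), XPO6 (75.0%), KPNA3 (72.0%), TNPO1 (71.7%) and NUP50 (71.3%) had windows rich in G and C but no interval. The part of base composition, of neighbouring starts and of the chromosomes in the count of 16 genes was not tested.

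**Figure D4:**
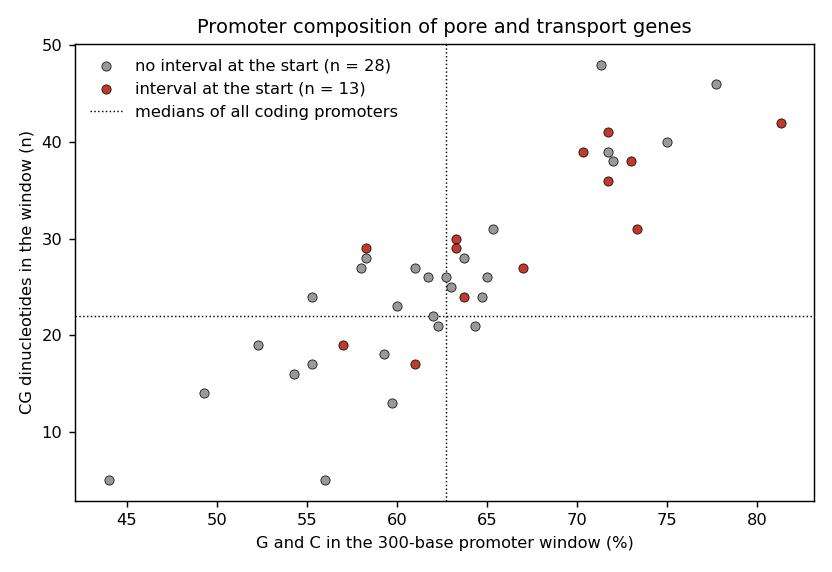
Share of G and C (x axis, %) and number of CG dinucleotides (y axis) in the 300-base promoter window of 41 pore and transport genes, each point 1 gene. Red points mark the 13 genes with an interval at the start, grey points the 28 without, and dotted lines are the medians of all protein-coding windows. The red and grey points overlap, and NUP210 is the red point farthest to the right.

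Finally, short motifs were looked up in the windows on both strands. GTTGCC, a half-site of the X-box, was present in 12 of 41 windows (29.3%, 17.6% to 44.5%), compared with 12.6% of all protein-coding windows. It was found in 4 of the 13 windows with an interval (NUP98, NUP188, NUP210 and XPO5; 30.8%) and in 8 of the 28 without (IPO4, IPO7, KPNA6, NUP35, NUP42, NUP50, NUP205 and TNPO1; 28.6%). The share was therefore nearly the same in windows with and without an interval at the start, as it was over all protein-coding genes (12.3% and 12.6%). Only the windows were searched, so these shares do not describe the sequence of the intervals. At KPNA1, for example, the interval covered 21 of the 300 bases, and interval sequence outside the windows was not examined. The GC box GGGCGG was in 9 of 13 windows with an interval (69.2%) and in 12 of 28 without (42.9%), and in all protein-coding windows the shares were 79.2% and 54.5%. CCAAT showed the reverse order, with 4 of 13 (30.8%) and 17 of 28 (60.7%), whereas in all windows it was at 37.1% and 36.3%. The ETS motif CCGGAAG was in 3 of 13 (23.1%) and 9 of 28 (32.1%), whereas over all protein-coding genes the order was reversed, with 21.1% and 12.9%. The E-box CACGTG was likewise in 1 of 13 (7.69%) and 5 of 28 (17.9%), compared with 11.4% and 8.35% over all genes. CGCATGCG, bound by NRF1, was in 1 of 13 (7.69%) and 3 of 28 (10.7%), compared with 4.52% and 2.6%, and AAGATGGCG, bound by YY1, was in 1 of 13 (7.69%) and 2 of 28 (7.14%), compared with 4.23% and 2.41%. Each of these counts rests on few windows. Motifs were counted independently, and they shared bases in places, as at XPOT, where a GC box and an ETS motif shared 2 bases. A match of letters is not a binding site.

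The rest of the transport machinery was covered by these 28 other genes. Of these, 9 had an interval at an end (32.1%, 17.9% to 50.7%), beside 15.5% of all protein-coding genes. Among 11 further pore genes, 5 had one (45.5%, 21.3% to 72.0%). They were NDC1, a membrane protein of the pore, with a score of 76, SEH1L with 72 and SEC13 with 25, both of the outer ring, AHCTF1, which recruits the outer ring to chromatin, with 27, and RANBP2 of the cytoplasmic filaments with 21. POM121, POM121C, TPR, AAAS, RAE1 and GLE1 had none. Of 6 genes of the RAN cycle, 1 had an interval at an end (16.7%, 3.01% to 56.4%), close to the 15.5% of all protein-coding genes. This gene was NUTF2, which carries RAN into the nucleus. It had the highest score of all genes considered here, 85, and an end of CENPT was also within 1 kb. RAN, RCC1, RANGAP1, RANBP1 and RANBP3 had none. Of 11 other carriers and adaptors, 3 had an interval at an end (27.3%, 9.75% to 56.6%), beside 15.5% of all protein-coding genes. They were CSE1L (score 37), the exporter that returns importin alpha, SNUPN (37), the adaptor for spliceosomal particles, and NXF1 (32), the exporter of mRNA. The interval of SNUPN lay 799 bp from the start, and that of DDX19B (47) lay in the body.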

How the data were processed

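The authors sequenced chromatin precipitated from MHCC-97H cells, and peaks were called by a sequencing company with MACS 2.1.0.2. The q threshold is given in the study's methods, whereas the aligner is not given in the sources used here. The authors deposited a peak list of 6214 lines without a header, with a chromosome, a start, an end, a name and a whole-number score whose meaning is not stated. Digit separators in 1 line were removed. Lines with the same coordinates were joined and kept their highest score, which left 5022 intervals, 5019 of them on chromosomes 1 to 22 and X. Coordinates are 1-based. Gene ends came from a RefSeq table of GRCh38.p14, and starts and sequences from a RefSeq promoter table of the same build, taking the most upstream start of each gene. The processing notes name GRCh37, and the build was settled from the positions of the intervals.

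An interval was counted by its midpoint, within 1 kb of a gene end or inside the gene. Shares have 95% Wilson intervals, which cover counting only. No test was run, because 1 ChIP library has no replicate error. As a check of the code only, intervals planted at known distances in simulated data were recovered by the same midpoint rule. This does not bear on the calling of peaks. All genes of the group with an interval were named, with their protein-coding neighbours, whereas non-coding neighbours were named at some genes only. The genes and lists were chosen with earlier results of these data known. Alternatives were score minima of 20 and 30, windows of 500 bp and 2 kb, any overlap, merging of intervals closer than 1 kb, the lowest score of repeated lines and, chosen after seeing the data, the nearest gene end, the counts by role under each of these and the removal of chromosomes 4, 13 and X. Python 3.11.15 was used with numpy 2.4.6, pandas 2.3.3, scipy 1.17.1 and matplotlib 3.10.9.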

Additional observations from a re-analysis of the deposited data

How the results depend on the processing

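The number of pore and transport genes with an interval at an end was 16 in the main count and ranged from 13 to 17 over the alternatives. With a score of at least 30 it was 13, beside 9.5% of all protein-coding genes, as NUP188, KPNB1 and NUP85 were lost. Within 2 kb it was 17, as KPNA7 was added, beside 17.2% of all. It was 16 with scores of at least 20, within 500 bp, with any overlap and after merging. The number at annotated starts was 13, beside 15.4% of all, and 11 for scores of at least 30, beside 9.37%. The number among the 28 other transport genes was 9, beside 15.5% of all, and lowest at 6 for scores of at least 30, beside 9.5%. The median score of the 24 intervals was 36, and 27 with the lowest score of repeated intervals. The median of the intervals at all protein-coding gene ends under the latter setting is not given here. None of these counts of pore, transport or companion genes, nor the median, moved by more than 1.5 times, whereas the share of all protein-coding genes did so for scores of at least 30. Of the counts by role, 3 moved by more than 1.5 times. The outer ring fell from 5 to 3 of 6 genes with the nearest gene end only, and with scores of at least 30 the inner ring fell from 2 to 1 of 5 and importin beta from 2 to 1 of 11. No paired analysis was possible because only a single ChIP library was listed, and for the same reason no replicate could be left out. As the depth was unknown, absence of an interval and too few reads cannot be told apart.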

Other observations

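The outer ring of the pore extends beyond the genes named by the symbol rule. Its complex in human cells consists of the products of NUP37, NUP43, NUP85, NUP107, NUP133, NUP160, SEC13 and SEH1L, of NUP96 from the NUP98 gene, and of AHCTF1. Of these 10 genes, 9 showed an interval at an end (midpoint within 1 kb), with NUP133 as the exception, beside 15.5% of all protein-coding genes. With each interval given only to the nearest coding gene end it was 7 of 10, beside 13.4% of all. For scores of at least 30 it was 6 of 10, beside 9.5% of all, as AHCTF1, NUP85 and SEC13 were lost. The highest scores were 72 at SEH1L, 55 at NUP43, 49 at NUP98 and 43 at NUP37, and the lowest were 25 at NUP85 and SEC13 and 27 at AHCTF1. The 10 genes lie on 7 chromosomes. This list was put together after the values were seen, so its count is a description only.

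RANBP2 spans 1120 kb in the gene table used here and includes other genes such as EDAR and SH3RF3. It therefore held 4 intervals in its body, from 253008 bp to 894509 bp beyond its start, whose nearest coding ends belonged to EDAR, SH3RF3 and SEPTIN10. The RANBP2 interval at the start had scores of 21 and 13 on its 2 lines.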
